A study of Mus musculus with 16 samples.

Results

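The 9 genes described here, Trpm5, Pou2f3, Gfi1b, Chat, Il25, Alox5, Gnat3, Plcb2 and Il17rb, are marker and pathway genes of the Trpm5 microvillar cell, a tuft-like cell of the olfactory epithelium. They form a list of named genes, and all 9 were found among the 19572 probe sets that name a gene, with 1 probe set each. They were measured on Clariom S mouse arrays in cells of dissociated olfactory mucosa. All groups came from S100a5-tauGFP mice, a reporter strain in which GFP marks olfactory sensory neurons by their activity. The groups were GFP+ cells after 2-octanone, GFP- cells after 2-octanone, GFP+ cells after vehicle and GFP- cells after vehicle, with 4 arrays each. The 24 mice were of both sexes and 7 to 12 weeks old, and were kept for 40 h in chambers with an air flow of 3.1 L/min. From 26 h on they received 10 s pulses every 20 min of 2-octanone, a ketone odorant, or of filtered air. Each array held RNA pooled from 3 mice, and the GFP+ and GFP- arrays of a pool shared these 3 mice, so the 16 arrays stand for 8 pools. The sort separated cells by GFP alone and did not isolate microvillar cells, so each value is the mean over all cells of a fraction.

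Tuft cells are rare chemosensory epithelial cells with an apical tuft of microvilli, and in the olfactory epithelium they lie near the surface among the sustentacular cells and do not send an axon to the brain. They depend on the transcription factor POU2F3. In the taste-type cascade that they use, a receptor acts through a G protein and phospholipase C beta 2, the enzyme releases calcium from stores, and calcium opens the cation channel TRPM5. Tuft cells signal to their neighbours with acetylcholine, with lipid mediators such as the cysteinyl leukotrienes, and with interleukin-25. Several of the 9 genes are not particular to tuft cells: Alox5 and Plcb2 are used by leukocytes, Gfi1b by red cell and platelet precursors, and Trpm5 by some olfactory sensory neurons.

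Values are the authors' normalised signals, read as log2. A probe set was taken as near background on an array where it lay below the 95th percentile of the 23 background control probe sets there, which was 7.61 to 8.18 (log2 signal). Array medians of the named probe sets were 7.64 to 8.01, and the background controls averaged 5.40 to 5.61. Signals of different probe sets are not compared with each other, and differences are GFP+ minus GFP- or 2-octanone minus vehicle. A gene passed the test, or was called, where its limma p, adjusted by Benjamini and Hochberg over all 19572 probe sets, was under 0.05. Omp, the marker of mature olfactory sensory neurons, had a mean signal of 18.39 in GFP+ cells and 18.24 in GFP- cells (n = 8 each, adjusted p = 0.206 in limma); both fractions thus held neuronal RNA at a high signal.

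The promoters of 7 of the 9 genes were in a RefSeq table of the mouse build GRCm38.p6, as windows of 250 bases before to 50 bases after the start of each gene. They were searched on both strands for the octamer ATGCAAAT, the motif that POU factors of the POU2F class bind, because POU2F3 sets the identity of these cells. None of the 7 windows held the whole octamer, which 1.74% of the 32851 windows in the table held. The shorter runs overlap each other and the octamer. ATGCAAA was in 0 of the 7 windows and in 4.63% of all, TGCAAAT was in 1 of the 7 and in 4.02% of all, and GCAAAT was in 2 of the 7 and in 10.5% of all. The 2 windows with a match, Chat (chr14:32465860-32466159, minus strand) and Gfi1b (chr2:28621933-28622232, minus strand), are printed below beside that of Trpm5 (chr7:143094593-143094892, minus strand), which had none. They run 5′ to 3′ along the gene, in lower case, and capitals mark the match.
Trpm5: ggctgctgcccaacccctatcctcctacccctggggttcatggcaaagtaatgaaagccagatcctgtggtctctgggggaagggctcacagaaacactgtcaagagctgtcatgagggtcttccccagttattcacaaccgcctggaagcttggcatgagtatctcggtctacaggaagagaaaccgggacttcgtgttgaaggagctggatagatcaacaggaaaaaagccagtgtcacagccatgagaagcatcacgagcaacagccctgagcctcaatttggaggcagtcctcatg
Chat: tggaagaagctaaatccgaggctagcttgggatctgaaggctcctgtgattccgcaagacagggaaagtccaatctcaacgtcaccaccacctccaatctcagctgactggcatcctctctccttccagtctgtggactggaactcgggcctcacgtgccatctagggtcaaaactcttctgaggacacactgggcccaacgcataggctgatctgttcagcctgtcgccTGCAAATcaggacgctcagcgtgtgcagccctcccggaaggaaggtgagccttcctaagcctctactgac
Gfi1b: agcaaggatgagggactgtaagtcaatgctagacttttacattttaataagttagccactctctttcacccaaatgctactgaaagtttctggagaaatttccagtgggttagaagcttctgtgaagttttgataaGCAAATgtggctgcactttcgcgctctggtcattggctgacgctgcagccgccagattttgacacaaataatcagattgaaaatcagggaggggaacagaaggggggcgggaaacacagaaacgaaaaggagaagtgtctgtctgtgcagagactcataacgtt
The match in Chat lay 20 bases before the start and that in Gfi1b 114 bases before it. A match is a run of letters and not a shown binding site, and a window without one says nothing about POU2F3.

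Of the 9 genes, 8 were called lower in the GFP+ fraction over both exposures, and the exception was Il25. Of all probe sets, 14% were called lower and 16.7% higher. The same 8 were called lower after 2-octanone alone, with 9.8% of all probe sets, and after vehicle alone, with 11%. The median difference was -2.14 (log2) over the 9 genes and 0.13 over all probe sets. The 8 genes were lower in GFP+ cells in every one of the 8 pools, as were 12.2% of all probe sets. For 7 of the 9 no GFP+ array reached any GFP- array, which held in the same direction for 8.25% of all probe sets. In sorted bulk RNA of this kind, fewer microvillar cells in a fraction and less RNA of these genes per cell cannot be told apart.

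**Figure D1:**
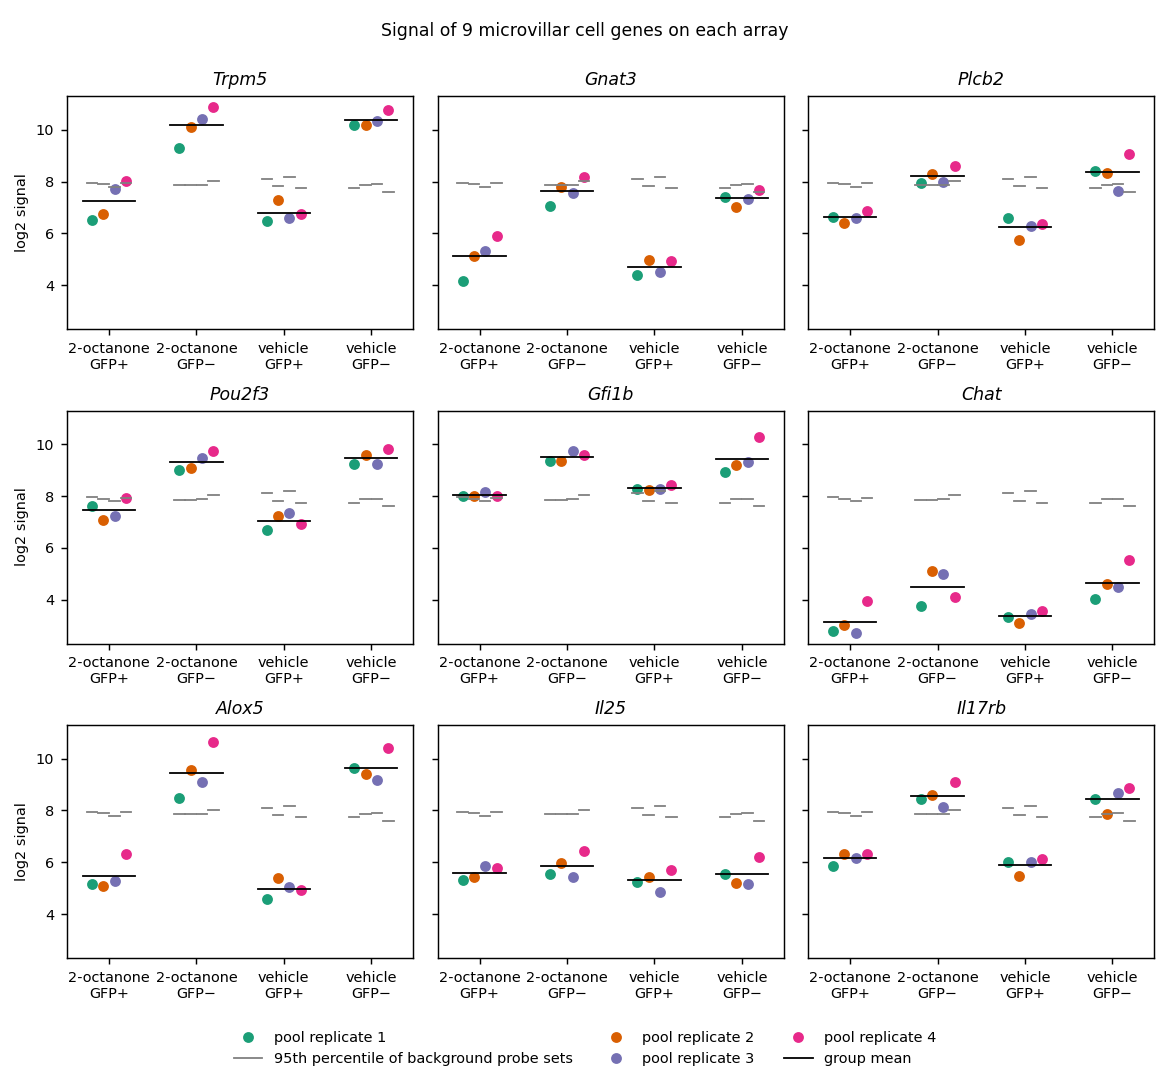
Log2 signal (y axis) of each of the 9 genes on all 16 arrays, with GFP+ left of GFP- and 2-octanone left of vehicle; points are arrays, black lines are group means and grey dashes are the background threshold of each array. The GFP+ points lie below all GFP- points for every gene but Chat and Il25, whose fractions overlap.

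Of the taste-type cascade, Trpm5, the calcium-gated cation channel that depolarises the cell, had signals of 6.53, 6.76, 7.72 and 8.03 in GFP+ cells and of 9.30, 10.09, 10.40 and 10.89 in GFP- cells after 2-octanone. After vehicle it had 6.50, 7.28, 6.58 and 6.77 in GFP+ cells, against 10.18, 10.18, 10.33 and 10.77 in GFP- cells (log2 signal, replicates 1 to 4). Every GFP+ array lay below every GFP- array, and 7 of the 8 GFP+ arrays were near background, all but replicate 4 after 2-octanone. With those 7 arrays raised to their background threshold, Trpm5 was at least 5.01-fold lower in GFP+ cells over both exposures (measured difference -3.25 ± 0.24 SE, adjusted p = 2.32e-08 in limma, n = 8 each). Within the exposures the measured difference was -2.91 after 2-octanone and -3.58 after vehicle, and after vehicle, where all GFP+ arrays were near background, Trpm5 was at least 5.29-fold lower. Only 1.55% of all probe sets had a lower difference than Trpm5.

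Gnat3, the alpha subunit of gustducin, the G protein of the taste cascade, had signals of 4.17, 5.15, 5.34 and 5.89 in GFP+ cells and of 7.05, 7.78, 7.57 and 8.16 in GFP- cells after 2-octanone. It had 4.41, 4.99, 4.51 and 4.95 in GFP+ cells, against 7.39, 7.04, 7.33 and 7.68 in GFP- cells after vehicle. The fractions did not overlap, but all 8 GFP+ arrays and 6 of the 8 GFP- arrays were near background, so no fold is given. The measured signals differed by -2.57 ± 0.21 SE (adjusted p = 7.47e-08 in limma).

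Plcb2, phospholipase C beta 2, the enzyme below gustducin, had 6.62, 6.41, 6.58 and 6.86 in GFP+ cells, against 7.94, 8.29, 7.97 and 8.60 in GFP- cells after 2-octanone. After vehicle its signals were 6.61, 5.75, 6.27 and 6.35 in GFP+ cells, against 8.40, 8.34, 7.65 and 9.07 in GFP- cells. All GFP+ arrays were near background and all lay below the GFP- arrays, 1 of which was near background too. Plcb2 was at least 1.28-fold lower in GFP+ cells (measured difference -1.85 ± 0.18 SE, adjusted p = 4.20e-07 in limma).

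Of 9 other measured genes of the cascade, for receptors, G protein subunits, a regulator and channels, 0 were lower and 2 were higher in GFP+ cells, with a median difference of 0.16. With each array centred on its median, 7 of the 9 were higher (median 0.44). That centring called 13089 of all 19572 probe sets higher, and their median was 0.41. Counts of higher genes with median centring, here and for the lists below, are to be read against that share. For 6 of the 9, all 16 arrays were near background. The 2 called genes were the taste receptor subunits Tas1r1 (0.43) and Tas1r2 (0.39), both near background in both fractions. Gng13, the G protein gamma subunit that olfactory neurons also use, had mean signals of 15.83 in GFP+ cells and 15.57 in GFP- cells and did not pass the test (adjusted p = 0.0509). Among paralogues of the 9 genes, 2 of 20 were lower, Il17ra (-1.82) and Alox15 (-1.26), and 5 were higher, among them the phospholipase genes Plcb4 (0.50) and Plcb3 (0.40). With median centring 12 of the 20 were higher, and without replicate 3 of 2-octanone or without replicate 2 of vehicle 3 were. Of the 8 GFP+ arrays, 7 were near background for Alox15 and 1 for Il17ra. Trpm4, the channel closest to Trpm5, was near background in both fractions (difference 0.02).

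Of the transcription factors, Pou2f3, the factor that tuft cells need in order to form, had signals of 7.62, 7.09, 7.22 and 7.91 in GFP+ cells and of 8.99, 9.10, 9.48 and 9.73 in GFP- cells after 2-octanone. It had 6.69, 7.24, 7.33 and 6.94 in GFP+ cells, against 9.23, 9.60, 9.22 and 9.82 in GFP- cells after vehicle. All GFP+ arrays were near background and no GFP- array was. Pou2f3 was at least 2.77-fold lower in GFP+ cells (measured difference -2.14 ± 0.15 SE, adjusted p = 1.78e-08 in limma).

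Gfi1b, a zinc finger repressor known from red cell and platelet development and a marker of tuft cells, had 8.01, 8.02, 8.16 and 8.02 in GFP+ cells, against 9.35, 9.34, 9.73 and 9.57 in GFP- cells after 2-octanone. It had 8.28, 8.22, 8.29 and 8.43 in GFP+ cells, against 8.92, 9.20, 9.33 and 10.28 in GFP- cells after vehicle. It was the only one of the 9 above the background threshold on all 16 arrays, and its fractions did not overlap. Several GFP+ arrays were only just above the threshold, such as replicate 1 after 2-octanone (8.01 against 7.96). The GFP+ array farthest above it was replicate 4 after vehicle (8.43 against 7.75). Gfi1b was 2.44-fold lower in GFP+ cells as measured (difference -1.29 ± 0.15 SE, adjusted p = 4.09e-06 in limma). Its paralogue Gfi1 was near background in both fractions (difference -0.07, adjusted p = 0.748).

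Of 6 other transcription factors listed for tuft cells, 5 were lower and 0 higher in GFP+ cells, with a median difference of -1.66. Spib, an ETS factor that is also used by B cells, was at least 1.97-fold lower (measured difference -3.40). Sox9, with 6 of 8 GFP+ arrays near background, was at least 6.74-fold lower (measured difference -3.08), and Runx1, a factor of blood cells as well, was at least 1.87-fold lower (measured difference -2.58). Hmx2 and Hmx3, homeobox genes, were called lower by -0.75 and -0.43 but were near background in both fractions. Of 16 genes for tuft cell structure and signalling, 14 were lower and 0 higher, with a median of -2.19, among them Rgs13, a regulator of G protein signalling (at least 8.20-fold, measured difference -3.47), Sh2d7 (at least 1.27-fold, measured difference -2.78) and Avil, the actin-binding advillin (at least 1.18-fold, measured difference -1.45). Cd24a had the largest measured difference of these 16 genes (-5.39, at least 22.11-fold lower, 6 of 8 GFP+ arrays near background). The list also holds Ptpn6, Vav1, Inpp5d, Irag2 and Siglecf, and the part of leukocytes in its differences was not tested. Dclk1, a common tuft cell marker in mouse intestine that neurons also express, had means of 9.11 in GFP+ cells and 9.48 in GFP- cells and did not pass the test (adjusted p = 0.193). Vil1, villin of the microvillar core, did not pass it either (adjusted p = 0.522).

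Of the mediators, Chat, choline acetyltransferase, had signals of 2.80, 3.02, 2.72 and 3.96 in GFP+ cells and of 3.74, 5.12, 4.99 and 4.11 in GFP- cells after 2-octanone. It had 3.33, 3.10, 3.44 and 3.57 in GFP+ cells, against 4.01, 4.60, 4.50 and 5.53 in GFP- cells after vehicle. All 16 arrays were near background, and the fractions overlapped through the GFP+ array of replicate 4 and the GFP- array of replicate 1 after 2-octanone. No fold is given, and the measured signals differed by -1.33 ± 0.25 SE (adjusted p = 5.22e-04 in limma). The call within 1 exposure changed when single pools were left out. After 2-octanone it was lost without replicate 2 (-1.12, adjusted p = 0.104) or without replicate 3 (-1.06, adjusted p = 0.113), and after vehicle it was lost without replicate 2 (-1.24, adjusted p = 0.0709) or without replicate 4 (-1.08, adjusted p = 0.0662).

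Of 13 measured genes that load, recycle, break down or bind acetylcholine, 0 were lower and 5 were higher in GFP+ cells (median difference 0.22), and 12 were near background in both fractions. Median centring called 13089 of all 19572 probe sets higher. The count of higher genes in this list was 10 with median centring and 2 with quantile normalisation. It was 1 without replicate 2 of 2-octanone and 2 without replicate 2 of vehicle. It was 3 without replicate 1 of 2-octanone or without replicate 1, 3 or 4 of vehicle. The exception, the nicotinic receptor subunit Chrnb2, differed by 0.57. Slc18a3, the vesicular transporter that lies in the same gene locus as Chat, had means of 2.89 in GFP+ cells and 3.07 in GFP- cells (adjusted p = 0.226), and the choline transporter Slc5a7 differed by 0.15 (adjusted p = 0.434).

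Alox5, 5-lipoxygenase, which makes the precursor of all leukotrienes, had signals of 5.18, 5.08, 5.29 and 6.32 in GFP+ cells and of 8.49, 9.58, 9.09 and 10.65 in GFP- cells after 2-octanone. It had 4.57, 5.39, 5.05 and 4.94 in GFP+ cells, against 9.63, 9.39, 9.17 and 10.40 in GFP- cells after vehicle. All GFP+ arrays were near background and all GFP- arrays above it. The measured difference, -4.32 ± 0.28 SE, was the largest of the 9 genes, and Alox5 was at least 3.07-fold lower in GFP+ cells (adjusted p = 4.90e-09 in limma). The rest of the eicosanoid pathway largely shared the direction, with 10 of 12 genes lower, 1 higher and a median of -1.22. Ptges, Cysltr1, Cysltr2 and Oxgr1, the 1 higher gene, were near background on all 16 arrays. The part of leukocytes in the differences of this list was not tested. Alox5ap, the protein that presents the substrate to 5-lipoxygenase, differed by -3.50, Pla2g4a, the phospholipase that frees arachidonic acid, was at least 2.17-fold lower, and Ltc4s, leukotriene C4 synthase, at least 1.27-fold lower. Ltb4r1, the leukotriene B4 receptor of neutrophils, was at least 1.54-fold lower, and Hpgds, the synthase of prostaglandin D2, at least 1.45-fold lower, with 3 of 8 GFP+ arrays near background.

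Il25, the cytokine by which tuft cells start type 2 responses in mouse gut and airway, had signals of 5.33, 5.42, 5.87 and 5.79 in GFP+ cells and of 5.56, 5.99, 5.45 and 6.42 in GFP- cells after 2-octanone. It had 5.26, 5.45, 4.87 and 5.71 in GFP+ cells, against 5.56, 5.20, 5.16 and 6.22 in GFP- cells after vehicle. All 16 arrays were near background, the fractions overlapped, and GFP+ was below GFP- in 6 of the 8 pools. The difference was -0.23 ± 0.18 SE (adjusted p = 0.343 in limma), and it turned to 0.04 where each array was centred on its median.

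Il17rb, the subunit of the interleukin-25 receptor that binds the cytokine, had 5.86, 6.31, 6.18 and 6.32 in GFP+ cells, against 8.46, 8.60, 8.14 and 9.10 in GFP- cells after 2-octanone. It had 6.02, 5.47, 6.02 and 6.13 in GFP+ cells, against 8.45, 7.85, 8.66 and 8.87 in GFP- cells after vehicle. All GFP+ arrays were near background, the fractions did not overlap, and 1 GFP- array after vehicle was near background. Il17rb was at least 1.50-fold lower in GFP+ cells (measured difference -2.47 ± 0.16 SE, adjusted p = 6.54e-09 in limma). Of 10 other genes of the pathway, 2 were lower and 1 higher, with a median of -0.09. With median centring 4 were higher and the median was 0.19, against 13089 of all 19572 probe sets and a median of 0.41. Stat6, the factor that interleukin-4 and interleukin-13 activate, was at least 1.87-fold lower, and Il17ra, the shared receptor subunit that pairs with Il17rb, differed by -1.82. Il33 (0.31) and Tslp (-0.07), the other epithelial cytokines of type 2 responses, did not pass the test.

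Of 6 receptors listed for tuft cells, 2 were lower and 0 higher, with a median of -0.08. With median centring 3 were higher and the median was 0.20, against 13089 of all 19572 probe sets and a median of 0.41. With the pool as a fixed block 1 of the 6 was higher. Cd300lf, a receptor of myeloid cells that is also on mouse tuft cells, differed by -2.56, and Il13ra1, a subunit of the interleukin-13 receptor, by -2.55. Il4ra (-0.23), Ffar3 (0.29), Sucnr1 (0.07) and Gprc5c (0.28) did not pass the test.

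**Figure D2:**
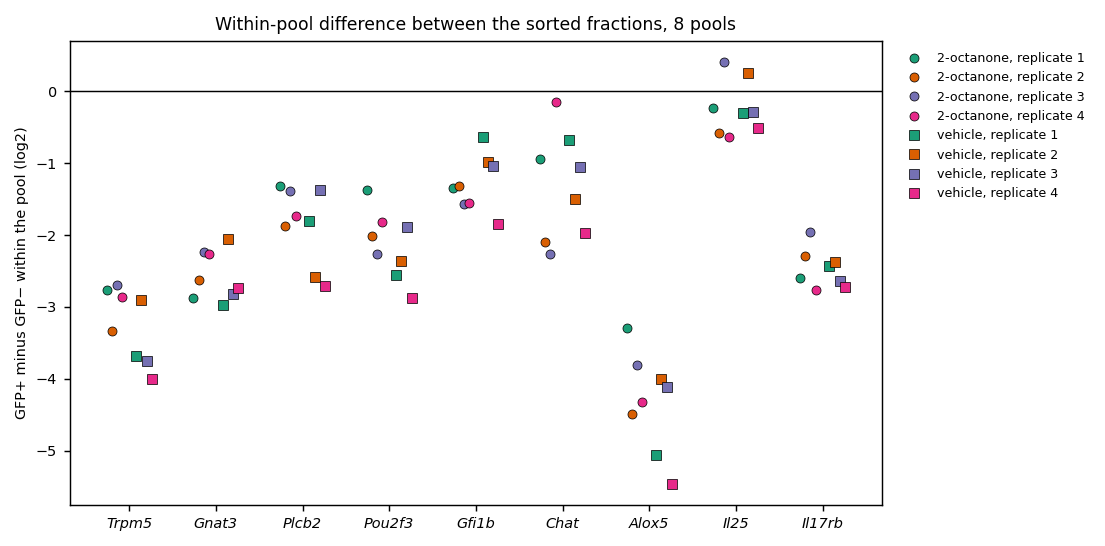
GFP+ minus GFP- log2 signal (y axis) of each of the 9 genes within each of the 8 pools, with 2-octanone left of vehicle; points are pools. All 8 pools lie below 0 for every gene but Il25, which lies below 0 in 6.

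Markers of other cells differed between the fractions along with these genes. All 10 neutrophil genes were lower in GFP+ cells, with a median difference of -7.04, and their mean signal per array was 6.91 to 12.37 in GFP+ cells and 14.37 to 15.90 in GFP- cells. On the GFP+ arrays 0 to 8 of the 10 were near background, and on the GFP- arrays none was. All 7 B and T cell genes were lower (5.60 to 6.38 in GFP+ cells, 7.78 to 8.70 in GFP- cells). Among them Cd3e, Cd3g and Cd8a, the T cell genes of the list, were near background on all 16 arrays. Of the macrophage genes 5 of 9 were lower (7.40 to 8.87 in GFP+ cells, 9.11 to 10.49 in GFP- cells). The macrophage genes had a median difference of -0.54 and a range of -4.69 to -0.01. Lyz2 had means of 11.08 and 10.41 in GFP+ cells against 15.41 and 15.46 in GFP- cells (2-octanone and vehicle). In the same order, C1qa had 8.55 and 9.30 against 9.04 and 9.04, C1qc 7.38 and 7.77 against 7.58 and 7.59. Mrc1 had 8.84 and 9.12 against 9.10 and 9.26. Of mast cell and basophil genes 5 of 10 were lower and 1 higher (median -0.74, range -3.56 to 0.54). Hdc was at least 10.27-fold lower, and Tpsb2, Tpsab1, Mcpt4, Cma1, Fcer1a and Ms4a2 were near background on all 16 arrays. Of red cell and platelet genes 4 of 8 were lower and 1 higher (median -0.32, range -2.28 to 0.41), with Slc4a1 differing by -2.28. Itga2b went the other way, with means of 8.80 and 9.01 in GFP+ cells against 8.54 and 8.44 in GFP- cells (2-octanone and vehicle). Gata1, Klf1, Epor, Gp9 and Pf4 were near background on all 16 arrays. With median centring 3 mast cell and basophil genes were higher, and of the red cell and platelet genes 2 were lower and 3 higher (median -0.04). Their mean signals per array were 5.34 to 5.97 in GFP+ cells and 6.33 to 7.32 in GFP- cells for mast cells and basophils, and 7.26 to 7.62 in GFP+ cells and 7.68 to 8.62 in GFP- cells for red cells and platelets. The part of these cells in the signals of Alox5, Plcb2, Gfi1b, Il17rb and the other 5 genes was not tested.

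Epithelial and neuronal lists moved as well. Of 8 genes of ionocyte-like microvillar cells, the other microvillar type of this epithelium, 7 were lower and 0 higher in GFP+ cells, with a median of -2.61. Foxi1, their defining factor, was at least 6.23-fold lower (measured difference -3.06, 7 of 8 GFP+ arrays near background), Hepacam2 at least 17.23-fold (measured difference -4.33, 3 of 8 near background) and Cftr at least 3.66-fold. Neuronal precursor and immature neuron genes were lower for 7 of 8 (median -2.90), and sustentacular genes for 4 of 10, with 1 higher and a median of -0.27 that was 0.01 after median centring. The 1 higher gene was lost without any single pool but replicate 3 of vehicle. Genes of mature olfactory neurons were higher for 5 of 10 and lower for 0 (median 0.26), for 10 with median centring and for 3 without replicate 2 or 3 of 2-octanone. Those of ciliated cells were higher for 6 of 7 and lower for 0 (median 0.47).

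**Figure D3:**
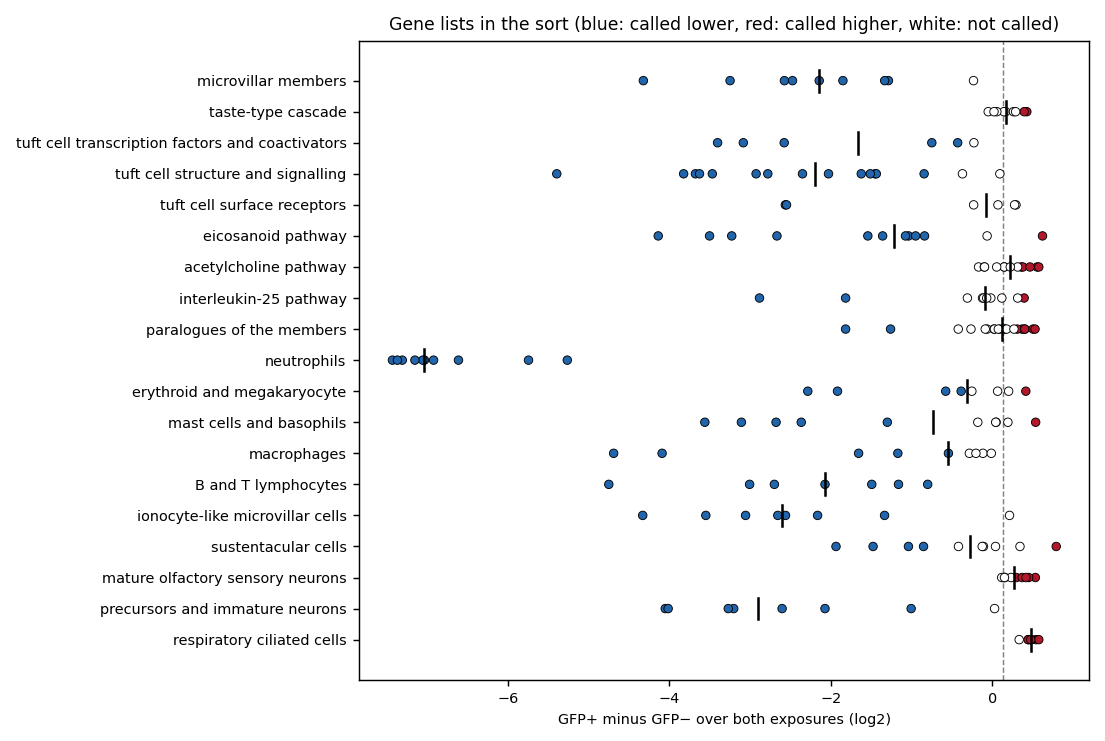
Median GFP+ minus GFP- difference (log2) of each gene list over both exposures, with the single genes as points, blue where called lower, red where called higher and white where not called, and a dashed line at the median of all probe sets. Tuft cell structure (-2.19), ionocyte-like (-2.61) and neutrophil (-7.04) lists lie below 0. The cascade (0.16) and acetylcholine (0.22) lists lie near the median of all probe sets (0.13).

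Next, 2-octanone was compared with vehicle within each fraction. In GFP+ cells limma called none of the 9 genes and 0% of all probe sets, while 3.16% of all probe sets and 0 of the 9 had an unadjusted p under 0.05. For 7 of the 9 the difference was positive, with Trpm5 at 0.48 (95% interval -0.25 to 1.20), and the median difference was 0.37 over the 9 genes and 0.01 over all probe sets. Gfi1b (-0.25, interval -0.70 to 0.20) and Chat (-0.23) were negative. Every adjusted p was 1.00. With the replicate number as a block, Plcb2 alone had an interval that left out 0 and an unadjusted p under 0.05 (difference 0.37, interval 0.02 to 0.73, adjusted p = 0.971 in limma). No share of all probe sets is given for that fit, so this result cannot be set against it. The 3.16% above is from the fit without a block. In the same comparison all 10 neutrophil genes were positive, with a median difference of 1.77 and a range of 0.77 to 2.50, and 0 were called. Their part in the differences of the 9 genes was not tested. Gfi1b was the only one of the 9 whose exposures did not overlap, with 8.01 to 8.16 after 2-octanone and 8.22 to 8.43 after vehicle. Its exact permutation test gave p = 0.0286, the smallest that 4 arrays against 4 can give and not adjusted for the 9 genes. Of all probe sets, 0.858% did not overlap in that direction.

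In GFP- cells none of the 9 genes was called by limma, none had an unadjusted p under 0.05, and none had exposures that did not overlap, against 0.7% of all probe sets lower and 1.12% higher without overlap. The differences ran from -0.20 to 0.32, with a median of -0.14, and every adjusted p was 1.00. Of all probe sets, 0.00511% were called, which is the olfactory receptor gene Olfr123 (-1.58, adjusted p = 0.0289), and 2.44% had an unadjusted p under 0.05. No probe set was called there when a pool other than replicate 1 or 4 of the vehicle exposure was left out. Trpm5 averaged 10.17 ± 0.66 after 2-octanone and 10.37 ± 0.28 after vehicle (SD, n = 4 each), and Pou2f3 averaged 9.33 ± 0.34 after 2-octanone and 9.47 ± 0.29 after vehicle. The order of the groups was therefore the same for the 8 called genes, with both GFP- groups above both GFP+ groups, and except for Gfi1b in GFP+ cells the groups of the same fraction overlapped.

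The GFP+/GFP- ratio did not pass the test for a change with 2-octanone in any of the 9 genes or in any other probe set (0%), while 2.38% of all probe sets had an unadjusted p under 0.05. It ran from -0.32 for Gfi1b to 0.68 for Alox5 (interval -0.49 to 1.85). Within pools, Trpm5 differed between GFP+ and GFP- cells by -2.77, -3.33, -2.69 and -2.86 after 2-octanone and by -3.68, -2.90, -3.75 and -4.00 after vehicle. These values overlapped, and their change of 0.67 ± 0.48 SE had an exact permutation p of 0.0571. With the pool as a block the change was 0.67 ± 0.25 SE (interval 0.11 to 1.23, unadjusted p = 0.0226, adjusted p = 0.999 in limma), and Trpm5 was the only one of the 9 with an unadjusted p under 0.05 there. The 2.38% above is from the fit without a block. No such share is given for the fit with the pool as a block, so this result cannot be set against all probe sets. The ratio of all 10 neutrophil genes changed in the positive direction too (median 1.67, 0 called), and their part in the change of Trpm5 was not tested.

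**Figure D4:**
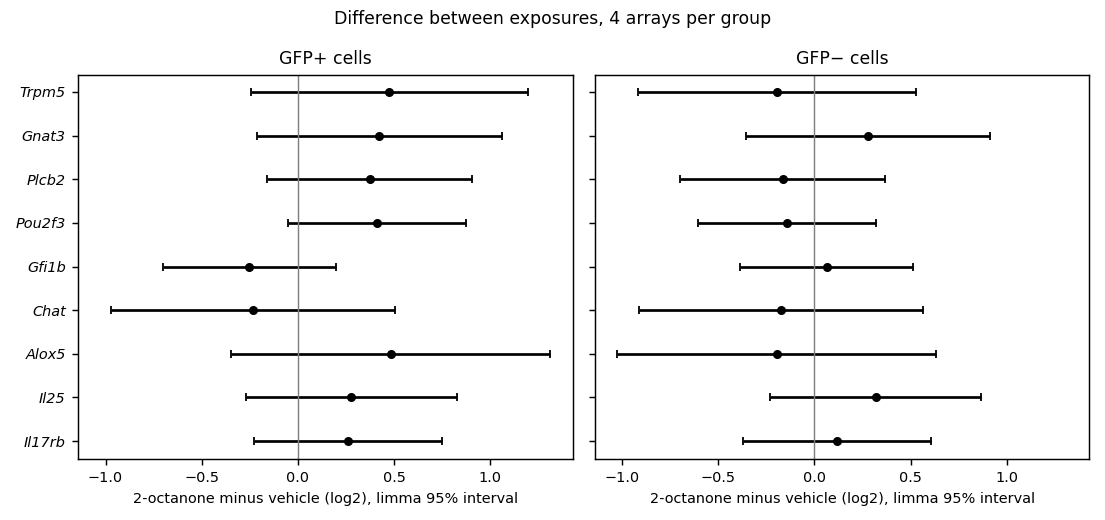
2-octanone minus vehicle difference in log2 signal of each of the 9 genes, in GFP+ cells and in GFP- cells, with 95% intervals from limma. Every interval includes 0, with Trpm5 in GFP+ cells at 0.48 (-0.25 to 1.20).

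Several of the 9 genes had their highest or lowest signal in the same pool. The replicate 4 pool had the highest signal for 7 of the 9 genes in GFP+ and 7 in GFP- cells after 2-octanone, and for 4 in GFP+ and 9 in GFP- cells after vehicle. Replicate 1 had the lowest signal for 6 of the 9 in GFP- cells after 2-octanone. The share of all probe sets highest or lowest in these pools is not given. These counts therefore do not show a trait particular to the 9 genes. The mean of the neutrophil genes was 7.36, 7.39, 9.81 and 12.37 in GFP+ cells, against 14.74, 15.58, 14.37 and 15.90 in GFP- cells after 2-octanone. It was 7.35, 7.43, 6.91 and 8.25 in GFP+ cells, against 15.21, 15.16, 14.49 and 15.72 in GFP- cells after vehicle, so replicate 4 was highest in each group. The part of those cells in the spread of the 9 genes was not tested. Without both replicate 4 pools, 8 of the 9 genes were called in the sort over both exposures and within each.

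**Figure D5:**
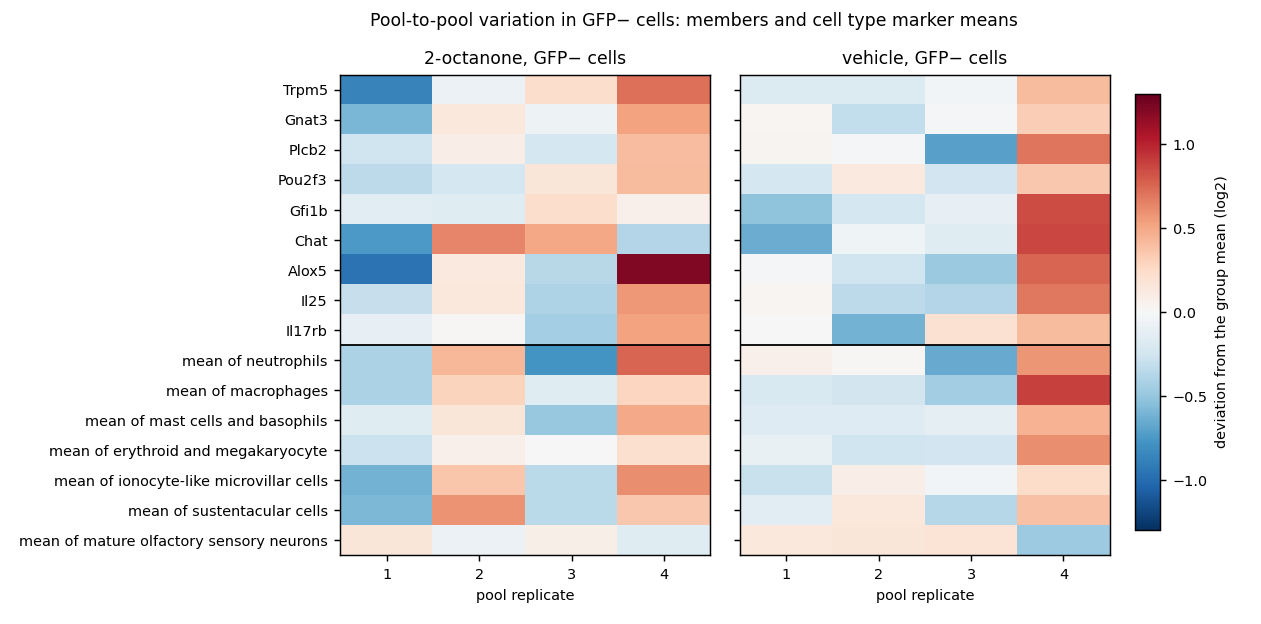
Deviation of each GFP- array from its group mean (log2, colour) for the 9 genes and for the mean of 7 lists of marker genes, by pool replicate, with 2-octanone left of vehicle. Replicate 4 is above its group mean for most genes and for the neutrophil mean in both exposures.

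Ranked by likeness to Trpm5 over all 16 arrays, the nearest genes were Ifitm3 (Pearson r = 0.993), Rac2 (0.989), Itgam (0.988), Pirb (0.987), Mrgpra2b (0.986) and Rgs13 (0.986). Of the 9 genes, Alox5 (0.986), Gnat3 (0.983) and Pou2f3 (0.970) were the nearest and Il25 (0.448) the farthest. The 6 nearest genes differed between the fractions by -5.15, -6.31, -6.17, -5.08, -6.31 and -3.47 in the order given. A large difference between the fractions by itself raises r over all 16 arrays. These values describe arrays that share pools and the same sort, and do not show that a gene belongs to Trpm5 cells. The part of leukocytes in them was not tested. Over the 8 GFP- arrays with each group mean subtracted, Gnat3 (0.903) and Alox5 (0.861) had the highest Pearson r with Trpm5 of the 9 genes, and Chat (0.468) and Il17rb (0.498) the lowest. Spearman's rho gave another order, with Gnat3 and Pou2f3 (0.786 each) and Gfi1b (0.762) highest, Alox5 at 0.643, Il17rb at 0.714 and Il25 (0.357) lowest. The replicate 4 pools stood high on these arrays. Among all 36 pairs of the 9 genes, Pearson's r there ran from 0.03 for Chat with Il17rb to 0.93 for Gnat3 with Alox5.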

How the data were processed

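RNA of GFP+ and GFP- cells from 8 pools was measured on 16 arrays. The authors deposited normalised signals, read here as log2 because their range, 2.13 to 18.99, is that of log2 array signals. The log base and the algorithm are not given in the sources used here. Affymetrix Expression Console made the values, per the submitters' processing notes, and cRNA came from 50 to 100 ng of RNA, per the labels' protocols. Of 28846 probe sets, 6640 controls and 2634 without a gene name were left out. A probe set is the array's group of probes for 1 gene. No arrays were identical.

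All 16 arrays were fitted on group means with limma 3.58.1 in R 4.3.3 (12 residual degrees of freedom), two-sided, with Benjamini-Hochberg adjustment over 19572 probe sets and calls at 0.05. Exact permutation tests used pools or arrays. Fractions of a pool come from the same mice and are paired, and the pool as a block changed no call of the 9 genes. The labels do not say what the replicate numbers share between exposures. Residuals of same-numbered arrays correlated by 0.175 to 0.435 in GFP+ cells, all above 0.1, and by -0.062 to 0.517 in GFP- cells, where replicate 2 was below it. The replicate number was therefore also used as a block for both fractions, and it changed no call of the 9 genes. Where all arrays of a group were near background, a fold is a lower bound, computed on each array against the higher of its background threshold and the signal. Where some GFP+ arrays were near background, those arrays were raised to their threshold in the same way. Where both groups were near background, or the bound was under 1, no fold is given. The labels call the pools replicates, and the number of arrays limits the precision. Alternatives were quantile normalisation, median centring, removal of probe sets under the median mean signal, inclusion of unnamed ones, limma's trend and robust options, array weights, only the arrays compared, omission of single pools or both replicate 4 pools, and pool or replicate number as a block. The fit was tested on simulated data with independent noise on each array and no shared pools. That test therefore does not cover the pairing of the fractions.

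The 9 genes, the 18 lists (179 of 196 entries measured) and the rule for named genes were chosen with earlier results of these data known. The rule took all 9 genes, up to 4 genes per direction and list, and the 6 genes most like Trpm5. Some listed genes, Itpr3 among them, were not analysed here.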

Additional observations from a re-analysis of the deposited data

Results flagged for a closer look

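Of 36 sets of 4 arrays (each of the 9 genes in each group), 3 held an array whose gap to its nearest neighbour, divided by the range of the set, was above Dixon's 95% critical value. Chance flags about 1 in 20 such sets. Gfi1b in GFP+ cells after 2-octanone was 8.16 in replicate 3 (gap over range 0.890), where the other arrays were 8.01 to 8.02. Alox5 in the same group was 6.32 in replicate 4 (0.834), where the others were 5.08 to 5.29. Il17rb in GFP+ cells after vehicle was 5.47 in replicate 2 (0.830), where the others were 6.02 to 6.13.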

How the results depend on the processing

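The 8 of 9 genes called lower over both exposures stayed at 8 under every alternative run but the removal of dim probe sets. That removal left Trpm5, Pou2f3 and Gfi1b in the table and called all 3, in the sort over both exposures and within each. It kept probe sets by their mean over all 16 arrays, to which high GFP- signals contribute. Its 3 calls are therefore no separate support for the difference. Leaving out 1 pool gave 8 of the 9 over both exposures and 7 to 8 within each, and 0 for the exposure comparisons. Probe sets called numbered 6000 over both exposures, 15141 after median centring and 3664 without dim probe sets. They numbered 2955 after 2-octanone, 9535 centred and 1811 without dim probe sets, and 1963 to 3496 when 1 pool was left out, lowest without replicate 2 after 2-octanone. They numbered 3633 after vehicle, 11289 centred and 2221 without dim probe sets, and 2552 to 3844 when 1 pool was left out. Centring moved the median of all probe sets to 0.41, against 0.13 as deposited, and the share of calls that were higher to 86.4% from 54.4% over both exposures, 83.0% from 35.1% after 2-octanone and 84.7% from 40.6% after vehicle. The median of the 9 genes was then -1.87. For 2-octanone in GFP- cells, 1 probe set was called, against 2 with array weights, 0 with only the arrays compared, 0 with the replicate number as a block and 0 to 2 when 1 pool was left out (1 without vehicle replicate 1, 2 without vehicle replicate 4, 0 without any other). With the replicate number as a block, 0 of the 9 genes were called in either fraction. Exact tests within 1 exposure cannot go below p = 0.125 in the sort. Signals near background limit what can be said of Chat and Il25 in both fractions, of Gnat3 in GFP+ cells and on 6 of 8 GFP- arrays, and of Trpm5, Plcb2, Pou2f3, Alox5 and Il17rb in GFP+ cells. Gfi1b was only just above the threshold on several GFP+ arrays.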

Other observations

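Over the 8 GFP- arrays with group means subtracted, the genes outside the list with the highest correlation to Trpm5 were Map6d1 (0.984), Ifitm3 (0.975), Fcer1a (0.975), B4galt5 (0.971), Tdpoz1 (0.971) and Tex45 (0.969). All of them except Ifitm3 were near background in both fractions.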
